A study of Mus musculus with 48 samples.

Results

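The 10 genes described here handle iron in the liver: Fth1 and Ftl1 (the heavy and light chains of ferritin), Tfrc and Tfr2 (the transferrin receptors), Trf (transferrin), Hamp and Hamp2 (hepcidin and its mouse paralogue), Slc40a1 (ferroportin), and Aco1 and Ireb2 (the iron regulatory proteins IRP1 and IRP2). They were chosen by name, and all 10 were found among the 20622 genes of the RNA tables and among the 16269 transcripts counted for ribosome footprints. They were measured in whole liver of 24 mice, all labelled male, aged 2 to 4 months, 3 mice in each of 8 groups, with 1 library of ribosome-protected fragments (RPFs) and 1 library of cytoplasmic RNA from the same lysate of every mouse. The study asked how liver responds when hepatocytes acquire mutant β-catenin, MYC or both.

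Every mouse, wild-type controls included, had received AAV8.TBG.PI.Cre.rBG, a virus that expresses Cre from the hepatocyte TBG promoter. The groups were Wild-type (WT), Ctnnb1ex3/+ (B, in which Cre activates β-catenin), R26-LSL-MYC (M, in which Cre switches on a MYC transgene) and Ctnnb1ex3/+; R26-LSL-MYC (BM), each taken 4 or 10 days after the virus. The mice were induced at different times and harvested together, so day is the time since induction. The TBG promoter limits Cre to hepatocytes, whereas the libraries were made from all cells of the liver.

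Iron enters cells when transferrin, the iron carrier of plasma, binds its receptor Tfrc and is taken up. Inside the cell it is used or stored in ferritin, a shell of heavy chains, which oxidise iron, and light chains. It leaves through ferroportin, the exporter that hepatocyte hepcidin removes from cell surfaces. When iron is scarce, IRP1 and IRP2 bind a short hairpin called the iron-responsive element (IRE): bound near the start of the ferritin and ferroportin mRNAs they hold back translation, and bound in the Tfrc 3′ UTR they protect the mRNA from decay.

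Of the 10 mRNAs, 4 held a match to the IRE in the annotated model of the transcript counted for footprints. The motif searched was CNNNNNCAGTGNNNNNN on the sense strand, with the 5 bases between the first C and the loop paired to the 5 bases after it (G-T pairs allowed). These are the sites through which ferritin translation and Tfrc mRNA are known to answer to iron, and they are printed 5′ to 3′ with the 6-base loop in capitals. Sequences and positions are from GRCm39 with GENCODE vM39 transcripts matched by identifier. Of 16201 such models, 4083 had the length of the transcript counted. Among the 10 genes only Fth1 and Trf did. The other 8 models were longer, such as that of Hamp (684 bases, where 410 were counted) and that of Tfr2 (3689 and 3072).
Fth1, 5′ UTR, exon 1, chr19:9960096-9960124, plus strand: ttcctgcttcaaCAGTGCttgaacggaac
Ftl1, 5′ UTR, exon 1, chr7:45109203-45109231, minus strand: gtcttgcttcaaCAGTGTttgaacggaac
Slc40a1, 5′ UTR, exon 1, chr1:45964625-45964653, minus strand: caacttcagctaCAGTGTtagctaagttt
Tfrc, 3′ UTR, exon 19, chr16:32450037-32450065, plus strand: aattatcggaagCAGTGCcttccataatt
Tfrc, 3′ UTR, exon 19, chr16:32450416-32450444, plus strand: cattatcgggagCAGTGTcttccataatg
Tfrc, 3′ UTR, exon 19, chr16:32450481-32450509, plus strand: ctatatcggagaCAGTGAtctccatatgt
Tfrc, 3′ UTR, exon 19, chr16:32450528-32450556, plus strand: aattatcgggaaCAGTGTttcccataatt

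The motif stood in the 5′ UTR of 20 of 16201 transcripts searched (0.123%) and in the 3′ UTR of 109 (0.673%). The 3 matches in 5′ UTRs of these genes were in Fth1, Ftl1 and Slc40a1, and all 4 matches in 3′ UTRs were in Tfrc. The other 6 genes had no match to these letters in either UTR. A match is a description of the sequence, and binding was not measured.

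The 3 BM livers at day 10 were split. Mouse 1 had 7826 Trf RPF CPM (counts set against a library total that TMM adjusts first, taking most genes as unchanged) where mice 2 and 3 had 1984 and 1785, and the BM livers at day 4 had 8403 to 9746. Mouse 1 also had 3916 TPM (transcripts scaled by length and library total) of Glul, a β-catenin target, where mice 2 and 3 had 1969 and 1591. Axin2, another such target, stood at 9.17 and 6.23 RNA CPM in mice 2 and 3 and at 15.4 to 36.3 in mouse 1 and all other B and BM livers. The same held for Lgr5, with 17.2 and 13.2 RNA CPM against 23.9 to 50.5. By Axin2 and Lgr5, mice 2 and 3 were the ones apart from the other B and BM livers. Changes of BM livers at day 10 are also given without mouse 1, as descriptions with no p-value. Counts of genes past the threshold without mouse 1 are descriptions too. That split was seen in these values, so a larger change or count without mouse 1 follows from the choice and is no added support. Glul, Axin2 and Lgr5, all β-catenin targets, were higher in every B and BM liver than in any WT or M liver. Myc had 43.6 to 164 RPF CPM in M and BM livers and 2.43 to 35.3 in WT and B livers, without overlap. Its RNA overlapped, at 19.6 to 53.0 CPM in M and BM livers and 22.1 to 48.3 CPM in WT and B livers. Markers of hepatocytes were present in all 24 livers.

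CPM and log2 changes are relative to the bulk of genes, and the scaling decided the direction of some results. An alternative chosen after seeing the data took library totals as they are, without TMM. With it the median log2 RNA change of all genes against WT was 0.18, 0.36 and 0.54 in B, M and BM livers at day 4 and 0.24, 0.20 and 0.43 at day 10, and the median RPF change was 0.10, 0.23 and 0.42 and then 0.27, 0.25 and 0.41. TMM put all 12 medians between -0.01 and 0.03. Values with library totals are given beside the called results whose direction they turn and beside many whose call they change. TPM follow library totals too. Amounts of RNA per cell were not measured.

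At the level of RNA per length, the genes differed widely in the 6 WT livers. Trf was the highest, at a median of 6199 TPM (range 5699 to 8248), followed by Fth1 at 1466 TPM, Hamp at 909 TPM and Ftl1 at 863 TPM. Hamp2 had 133 TPM, Tfr2 106 TPM and Aco1 87.1 TPM. Slc40a1 had 52.2 TPM (range 36.8 to 89.1), Ireb2 had 51.7 TPM (range 36.6 to 75.8) and Tfrc, the lowest, had 18.9 TPM (range 15.4 to 45.5). Each gene overlapped its neighbour in this order over the 6 livers, except between Trf and Fth1 and between Ftl1 and Hamp2.

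Translation efficiency (TE), the RPF signal relative to RNA, can be ranked within a library once each gene is set per codon. In WT livers Hamp stood at a median percentile of 78.3 among 9843 to 10321 genes, Tfr2 at 70.9, Aco1 at 69.9 and Trf at 65.3. Slc40a1 stood at percentile 59.1, Tfrc at 42.8 and Hamp2 at 22.0. Fth1, with the IRE motif in its 5′ UTR, stood at percentile 24.9 and Ireb2, with no match, at 17.1. The lowest was Ftl1, with the motif and with reads shared with another gene, at 1.69. Only 41.8% of the Fth1 TPM, 25.9% of the Tfr2 TPM, 52.0% of the Trf TPM and 70.8% of the Tfrc TPM came from the transcript whose footprints were counted, against 100% for the other 6, so the rank of those 4 depends on how RNA was split between isoforms.

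The counts of 3 genes are uncertain because they share sequence. Of the 430 windows of 30 bases in the counted coding region of Ftl1, 384 (89.3%) also occur in Ftl1-ps1, and 39 of 130 windows (30%) of Hamp and of Hamp2 occur in each other. Footprints went mostly to Ftl1-ps1, with 146 to 673 RPF CPM, and only 18.5 to 95.3 RPF CPM were given to Ftl1. Ftl1 summed with Ftl1-ps1 and Hamp summed with Hamp2 were therefore analysed too. The other 7 genes share no window of this length with any other counted transcript.

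**Figure D1:**
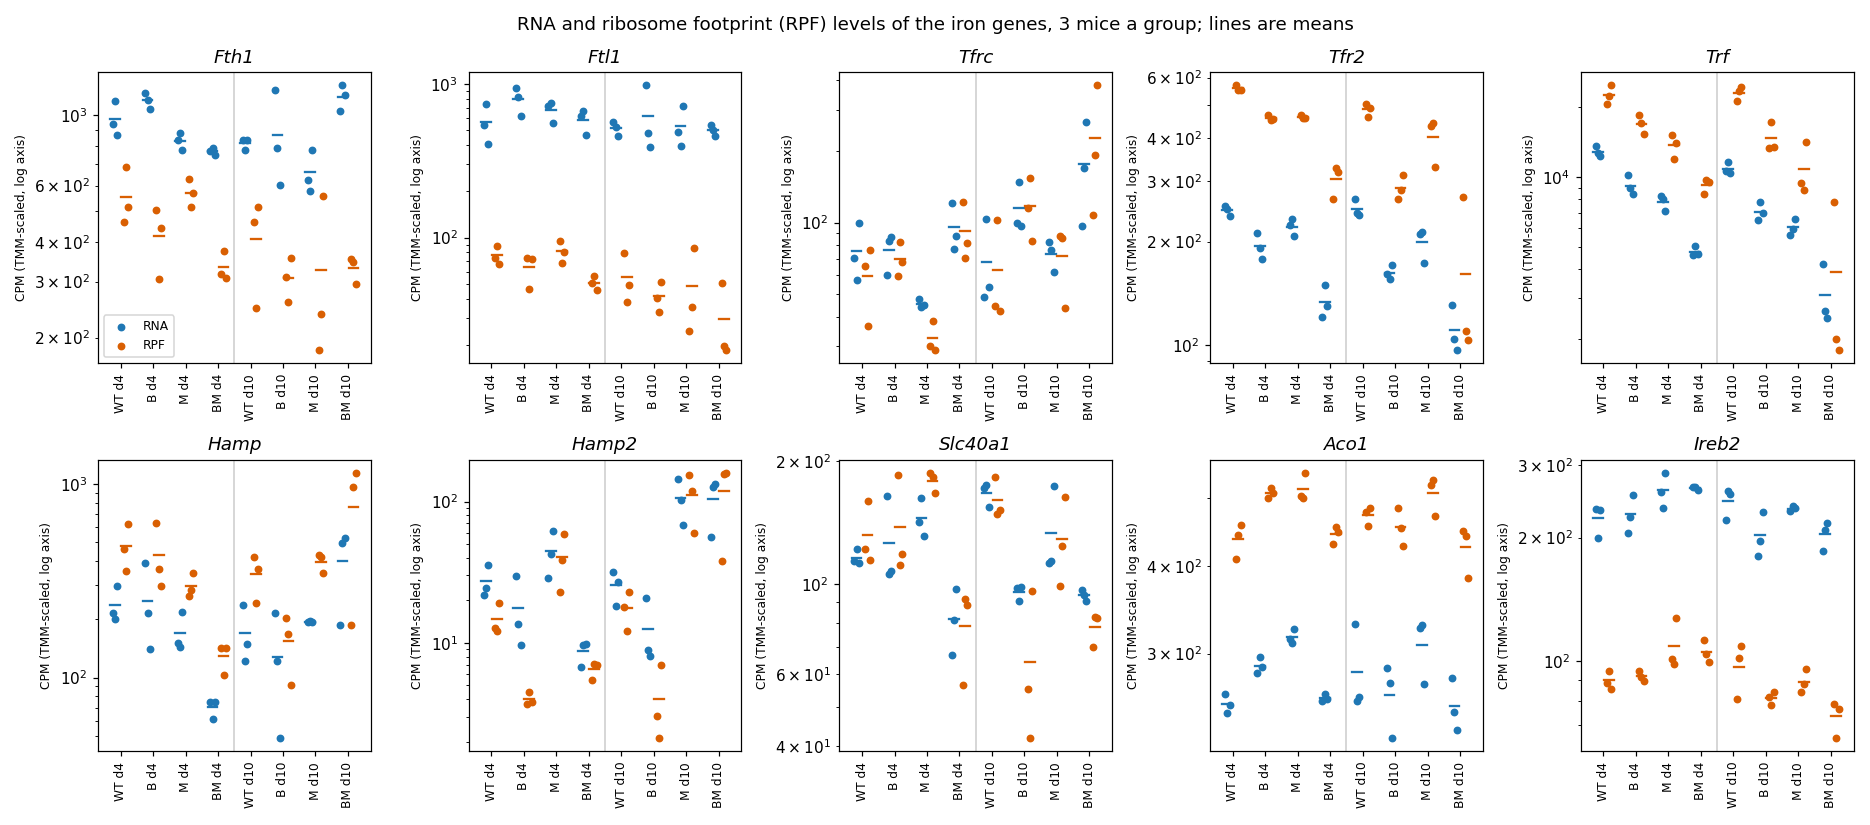
RNA and RPF abundance (in separate colours) of the 10 iron genes in every mouse, in TMM-scaled CPM on log axes that differ between panels, with lines at group means of 3 mice. On this scale Trf lay below WT in every mutant group and Tfr2 lowest in BM livers. Hamp and Hamp2 lay low in BM livers at day 4, and at day 10 Hamp was above every WT liver in 2 of the 3 BM livers and Hamp2 in all 3.

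Ferritin heavy chain footprints fell in BM livers at day 4 and its RNA rose at day 10, under both scalings. Its RNA at day 4 fell with TMM and rose with library totals. Fth1 (chr19:9957911-9962462, plus strand) had 938, 1106 and 863 RNA CPM in WT mice 1, 2 and 3 at day 4 and 770.4, 786 and 751 in BM mice. The BM livers were all lower, by 0.33 ± 0.11 (SE) on the log2 scale (quasi-likelihood test of edgeR, p-values adjusted by Benjamini and Hochberg's method over all genes, adjusted p = 0.0284), and the call was lost without WT mouse 2 or without BM mouse 3 (adjusted p up to 0.113). With library totals the direction turned, to 0.22 ± 0.10 (edgeR adjusted p = 0.0752), and in TPM the BM livers, at 1888 to 1913, all lay above the WT livers, at 1256 to 1503. By day 10 the WT livers had 834, 774 and 836 RNA CPM and BM livers 1027, 1241 and 1155. Every BM liver was higher than every WT liver there, with a log2 change of 0.48 ± 0.14 (edgeR adjusted p = 0.0276), or 0.54 ± 0.12 without BM mouse 1. Leaving out any 1 of the 3 WT mice or BM mouse 2 took this call away (adjusted p up to 0.123). The change of the BM effect between the days, 0.81 ± 0.17, passed the test (edgeR adjusted p = 0.00484) in all 12 fits that left out 1 mouse.

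Footprints on Fth1 fell in BM livers at day 4. WT livers had 463, 686 and 512 RPF CPM and BM livers 317, 374 and 307, with no overlap and a log2 change of -0.71 ± 0.14 (edgeR adjusted p = 0.00167), or -0.29 ± 0.14 with library totals (edgeR adjusted p = 0.0693). At day 10 the WT livers themselves were spread, at 462, 247 and 515 RPF CPM, and the BM livers, at 353, 345 and 294, lay inside that range. The change there was -0.32 ± 0.27 (edgeR adjusted p = 0.387), or -0.36 ± 0.25 without BM mouse 1. WT mouse 2 was the low control, and without it the change was -0.60 (edgeR adjusted p = 0.0597). B livers had 503, 306 and 443 RPF CPM at day 4 and 309, 259 and 356 at day 10, and M livers 630.4, 513 and 567 and 183, 237 and 559. None of these 4 groups passed the test against WT, and each call that 1 mouse decided was gained: B at day 4 without B mouse 1 (edgeR adjusted p = 0.087), B at day 10 without WT mouse 2 (edgeR adjusted p = 0.0234) and M at day 10 without M mouse 3 (log2 change -0.96, edgeR adjusted p = 0.0426).

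Light chain footprints fell in BM livers at day 4 with TMM scaling only, within the limits of their shared reads. Ftl1 (chr7:45107367-45109308, minus strand) had 542, 743 and 406 RNA CPM in WT and 617, 666 and 469 in BM livers at day 4, which overlapped, with a log2 change of 0.05 ± 0.18 (edgeR adjusted p = 0.851). Its footprints, 73.3, 88.5 and 67.7 RPF CPM in WT and 50.3, 56.2 and 45.6 in BM, did not overlap and fell by 0.57 ± 0.11 (edgeR adjusted p = 0.00199). Summed with Ftl1-ps1, footprints fell by 0.45 ± 0.11 on the log2 scale in BM livers at day 4 (edgeR adjusted p = 0.0075) and by 0.93 ± 0.32 at day 10 (edgeR adjusted p = 0.0547), or by 1.31 ± 0.21 without BM mouse 1. The summed RNA changed by 0.04 ± 0.18 and 0.02 ± 0.15, and neither passed. With library totals the summed footprints changed by -0.03 and -0.53 at the same days (edgeR adjusted p = 0.817 and 0.237), and the summed RNA rose by 0.59 and 0.41 (edgeR adjusted p = 0.00721 and 0.0619). At day 4 that scaling also raised the summed RNA in B livers, by 0.69, and in M livers, by 0.62 (edgeR adjusted p = 0.0253 and 0.0108), and the summed footprints in M livers, by 0.50 (edgeR adjusted p = 0.00959). For Ftl1 alone they gave -0.15 in footprints at day 4 (edgeR adjusted p = 0.276) and 0.60 and 0.35 in RNA (edgeR adjusted p = 0.00645 and 0.0902). For Ftl1 alone at day 10, WT livers had 78.9, 37.8 and 49.3 RPF CPM and BM livers 50.4, 19.8 and 18.5, so that BM mouse 1 lay above 2 of the WT mice and BM mice 2 and 3 below all of them. That change was -0.92 ± 0.43 with all mice (edgeR adjusted p = 0.127) and -1.55 ± 0.26 without BM mouse 1.

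Transferrin receptor 1 RNA fell in M livers at day 4 and rose in BM livers at day 10. Tfrc (chr16:32427556-32451612, plus strand), which brings iron-loaded transferrin into cells, had 70.8, 57.3 and 99.8 RNA CPM in WT livers at day 4 and 47.3, 44.1 and 44.9 in M livers, all of the latter below all of the former. This was a log2 change of -0.74 ± 0.16 (edgeR adjusted p = 0.00598), and footprints fell alike, by 0.84 ± 0.23 (edgeR adjusted p = 0.0223). The BM livers at day 4, at 121, 77.7 and 88.0 RNA CPM, did not pass the test against WT (log2 change 0.34 ± 0.18, edgeR adjusted p = 0.178) but did without WT mouse 3 (0.58, edgeR adjusted p = 0.0317), without BM mouse 2 (0.47, edgeR adjusted p = 0.0772) and with library totals (0.88, edgeR adjusted p = 0.00134). They lay entirely above the M livers, by 1.07 ± 0.14 (edgeR adjusted p = 9.23e-05). Their footprints passed against WT, with a change of 0.64 ± 0.24 (edgeR adjusted p = 0.0527), but not without WT mouse 2 or BM mouse 1 (adjusted p up to 0.179) or with DESeq2 (DESeq2 adjusted p = 0.181).

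At day 10, Tfrc was higher in BM than in WT livers in both measures. The WT livers had 48.2, 103 and 53.5 Tfrc RNA CPM and the BM livers 96.6, 171 and 265, so BM mouse 1 lay below WT mouse 2 and BM mice 2 and 3 above every WT liver. The log2 change was 1.36 ± 0.39 (edgeR adjusted p = 0.0239), or 1.65 ± 0.28 without BM mouse 1. The footprints, 44.2, 102 and 42.4 RPF CPM in WT and 108, 194 and 381 in BM, did not overlap and rose by 1.84 ± 0.51 (edgeR adjusted p = 0.0253). Without WT mouse 1 the edgeR adjusted p-values were 0.101 for RNA and 0.102 for RPFs, and without BM mouse 1 the RPF change was 2.18 ± 0.36. In B livers at day 10, with 99.2, 149 and 96.6 RNA CPM, the change of 0.75 ± 0.27 did not pass (edgeR adjusted p = 0.106), but it did when WT mouse 2 or B mouse 3 was left out (log2 change up to 1.16) and with library totals (0.94, edgeR adjusted p = 0.0343). BM mouse 1 lay below these B livers in RNA and inside their range in footprints. The Tfrc change of BM against B livers did not pass in RNA (0.64 ± 0.33, edgeR adjusted p = 0.183) or footprints (0.97 ± 0.45, edgeR adjusted p = 0.142). With library totals both passed (0.79 and 1.05, edgeR adjusted p = 0.094 and 0.0991). Without BM mouse 1 the changes were 0.94 ± 0.23 and 1.33 ± 0.31. Proliferation genes did not follow the same order over groups: the summed RNA of 8 of them was 549 to 844 CPM in BM livers at day 4, 172 to 191 CPM in BM livers at day 10 and 105 to 158 CPM in WT livers over both days. Their part in the Tfrc result was not tested.

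Under both scalings, transferrin receptor 2 fell in B and BM livers and transferrin in all 3 mutant genotypes, in at least 1 measure and at 1 day or both. Tfr2 (chr5:137568087-137586343, plus strand), a hepatocyte receptor that senses loaded transferrin upstream of hepcidin, had 254, 249 and 237 RNA CPM in WT, 211, 192 and 177 in B, 223, 233 and 208 in M and 120.5, 149.9 and 130.2 in BM livers at day 4. At day 10 the values were 266, 242 and 238 in WT, 160.4, 156 and 171 in B, 210.5, 213 and 173 in M and 131, 104 and 96.6 in BM livers. In these TMM-scaled CPM, every mutant liver lay below every WT liver of its day, and every BM liver below every B and M liver of its day. In TPM the M livers at day 4, at 114 to 130, lay above the WT livers, at 91.8 to 98.2. The BM changes were -0.88 ± 0.10 at day 4 (edgeR adjusted p = 1.25e-05) and -1.17 ± 0.15 at day 10 (edgeR adjusted p = 0.000637), or -1.32 ± 0.12 without BM mouse 1. With library totals they were -0.34 and -0.77 (edgeR adjusted p = 0.00688 and 0.00407).

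In B livers Tfr2 RNA changed by -0.35 ± 0.10 at day 4 (edgeR adjusted p = 0.0519) and -0.61 ± 0.13 at day 10 (edgeR adjusted p = 0.0103). The day 4 call was lost in 4 of the 6 fits that left out 1 mouse, those without WT mouse 1, WT mouse 3, B mouse 2 or B mouse 3 (adjusted p up to 0.205), and its RPF counterpart, -0.30 ± 0.08, was lost without WT mouse 1 or B mouse 2 (adjusted p up to 0.123). Neither passed with library totals (-0.16 and -0.19, edgeR adjusted p = 0.346 and 0.154). In M livers the RNA changes, -0.15 ± 0.09 and -0.32 ± 0.11, did not pass (edgeR adjusted p = 0.263 and 0.106), whereas footprints at day 4 fell by 0.25 ± 0.06 (edgeR adjusted p = 0.0192). With library totals the day 4 RNA direction turned, to 0.20 ± 0.09 (edgeR adjusted p = 0.0788), and the footprint change was -0.03 (edgeR adjusted p = 0.735). In BM livers at day 10 the footprints stood at 270.0, 109.9 and 103 RPF CPM against 504, 461 and 489 in WT livers, and BM mouse 1 lay between the 2 lower BM livers and all WT livers. The RPF change was -1.61 ± 0.36 (edgeR adjusted p = 0.012), and -2.20 ± 0.13 without mouse 1.

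Trf (chr9:103081200-103107814, minus strand) had 13578, 12692 and 12341 RNA CPM in WT, 10149, 8958 and 8427 in B, 8281, 8062 and 7103 in M and 4599, 5036 and 4640.1 in BM livers at day 4. At day 10 it had 10649, 11557 and 10362 in WT, 6482, 7753 and 7009.7 in B, 5618, 5958 and 6601 in M and 4205, 2628 and 2458 in BM livers. On this scale no mutant liver overlapped the WT livers of its day, and the BM livers were the lowest at both days. The BM change was -1.43 ± 0.12 at day 4 (edgeR adjusted p = 7.74e-07) and -1.81 ± 0.24 at day 10 (edgeR adjusted p = 0.000804), and the M change -0.72 ± 0.12 (edgeR adjusted p = 0.000739) and -0.84 ± 0.19 (edgeR adjusted p = 0.0175, or 0.118 without M mouse 1). In B livers the RNA changes of -0.49 ± 0.15 and -0.61 ± 0.20 passed narrowly (edgeR adjusted p = 0.0834 and 0.074), the first lost in 5 of 6 fits without 1 mouse (all but B mouse 1, adjusted p up to 0.263) and the second in all 6 (adjusted p 0.101 to 0.175). With library totals the BM changes of Trf RNA were -0.89 and -1.41 (edgeR adjusted p = 4.88e-06 and 0.00174) and the B changes did not pass (-0.30 and -0.39, edgeR adjusted p = 0.179 and 0.182).

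Footprints on Trf fell further than its RNA in 2 of the 3 BM livers at day 10. The WT livers had 21332, 23437 and 24550.0 RPF CPM and the BM livers 7826, 1984 and 1785. The change was -2.60 ± 0.57 with all mice (edgeR adjusted p = 0.0109), -2.28 without mouse 2 and -2.26 without mouse 3 (edgeR adjusted p = 0.0363 and 0.0247). Without mouse 1 it was -3.63 ± 0.20, against -2.11 ± 0.17 for RNA. The B livers at day 4 lost 0.43 ± 0.11 of Trf footprints on the log2 scale (edgeR adjusted p = 0.0415), a call lost without WT mouse 3, B mouse 2 or B mouse 3 (adjusted p up to 0.178). In bulk liver, fewer cells of a type and less RNA per cell cannot be told apart. The summed RNA of 8 hepatocyte markers moved with these genes, at 110200 to 113000 CPM in WT and 52930 to 63160 CPM in BM livers at day 4, and 113000 to 117500 CPM and 48580 to 55990 CPM at day 10. Of these 8 markers, 6 fell in BM livers at day 4, where 20.6% of all genes did, and 4 fell at day 10, where 22.8% did. At day 10 another 2 rose, near the share of all genes (22.9%). With library totals 4 fell and 2 rose at both days (5.48% and 67.2% of all genes at day 4, 11.4% and 47.6% at day 10). The part of these markers in the Tfr2 and Trf results was not tested.

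Hepcidin changed direction with time in BM livers. Hamp (chr7:30641766-30643990, minus strand), the hormone through which hepatocytes close ferroportin, had 215, 201 and 297 RNA CPM in WT livers at day 4 and 74.4, 61.4 and 74.6 in BM livers. Every BM liver was below every WT liver, and the log2 change was -1.76 ± 0.14 (edgeR adjusted p = 5.45e-07). Footprints went from 458, 356 and 617 RPF CPM in WT to 142, 103 and 142 in BM livers, a change of -1.87 ± 0.19 (edgeR adjusted p = 1.58e-05).

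At day 10 the WT livers had 238, 121 and 149 Hamp RNA CPM and the BM livers 186, 492 and 523. BM mouse 1 lay within the WT range and mice 2 and 3 lay above every other liver of the study. The log2 change was 1.23 ± 0.38 (edgeR adjusted p = 0.0326), or 1.57 ± 0.22 without mouse 1, and it missed the threshold without WT mouse 2 or WT mouse 3 (adjusted p up to 0.127). The footprints, 421, 244 and 362 RPF CPM in WT and 187, 962 and 1139 in BM, did not pass (log2 change 1.14 ± 0.57, edgeR adjusted p = 0.15, or 1.61 ± 0.20 without mouse 1), but did with library totals (1.49, edgeR adjusted p = 0.0578). The difference between the day 10 and day 4 effects was 2.99 ± 0.45 for RNA (edgeR adjusted p = 0.000396) and 3.02 ± 0.68 for RPFs (edgeR adjusted p = 0.00707).

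Hamp also fell in livers with 1 mutation. M livers at day 4 had 150.0, 144 and 218 RNA CPM, overlapping WT, with a change of -0.48 ± 0.17 (edgeR adjusted p = 0.0628) that was lost in 3 of 6 fits, without WT mouse 3, M mouse 1 or M mouse 2 (adjusted p up to 0.287), and with library totals (-0.13, edgeR adjusted p = 0.542). Footprints fell there by 0.65 ± 0.18 (edgeR adjusted p = 0.0241). B livers at day 10 had 215, 121 and 48.9 RNA CPM and 202, 168 and 91.9 RPF CPM: the RNA overlapped WT (edgeR adjusted p = 0.599), and the footprints lay below every WT liver, with a change of -1.18 ± 0.28 (edgeR adjusted p = 0.0205). Acute-phase genes, which respond to inflammation as hepcidin does, fell in 12 of 12 cases in BM livers at day 4 (11 with library totals), where 20.6% of all genes fell (5.48% with library totals). Their sum was 7011 to 9897 CPM against 24600 to 42140 CPM in WT. At day 10, 2 rose and 6 fell in BM livers (22.9% and 22.8% of all genes), with sums of 8139 to 11360 CPM in BM and 18100 to 25100 CPM in WT. Their part in the Hamp result was not tested.

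The paralogue Hamp2 spanned the widest range of the 10 genes, 21.4-fold in RNA and 74.9-fold in footprints over the 24 livers. Hamp2 (chr7:30621797-30624106, minus strand) had 21.8, 24.6 and 35.7 RNA CPM in WT, 28.9, 42.9 and 62.0 in M and 6.78, 9.68 and 9.80 in BM livers at day 4. At day 10 it had 31.9, 18.2 and 27.0 in WT, 20.8, 8.98 and 8.05 in B, 145, 103 and 68.1 in M and 56.0, 126 and 133 in BM livers. It was thus low in BM livers at day 4 and high in M and BM livers at day 10, with no overlap with WT in any of these.

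The BM change of Hamp2 RNA was -1.64 ± 0.21 at day 4 (edgeR adjusted p = 3.45e-05) and 2.02 ± 0.33 at day 10 (edgeR adjusted p = 0.002; 2.33 ± 0.18 without BM mouse 1), a difference between days of 3.66 ± 0.44 (edgeR adjusted p = 7.39e-05). In M livers it was 0.70 ± 0.23 at day 4 (edgeR adjusted p = 0.0551, lost without WT mouse 1, WT mouse 2 or M mouse 3, adjusted p up to 0.192) and 2.04 ± 0.26 at day 10 (edgeR adjusted p = 0.000981). In B livers footprints fell at both days, to 3.68, 4.48 and 3.83 and 3.04, 2.13 and 6.96 RPF CPM from 12.7, 12.1 and 19.2 and 18.0, 12.1 and 23.0 in WT livers. These changes were -1.89 ± 0.20 (edgeR adjusted p = 0.000402) and -2.12 ± 0.40 (edgeR adjusted p = 0.00749). The B change of Hamp2 RNA passed at day 10 (-1.04 ± 0.32, edgeR adjusted p = 0.0628, lost without WT mouse 1, WT mouse 3, B mouse 2 or B mouse 3, adjusted p up to 0.226), and at day 4 it passed only without B mouse 1 (log2 change -1.21, edgeR adjusted p = 0.00566).

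With Hamp and Hamp2 summed, the BM change of RNA was -1.75 at day 4 and 1.37 at day 10 (edgeR adjusted p = 0.0196; 1.70 without BM mouse 1), and RNA of M livers at day 10 rose by 0.62 (edgeR adjusted p = 0.0782). Summed footprints of M livers at day 10 did not pass (0.50, edgeR adjusted p = 0.173), but did with library totals (0.74, edgeR adjusted p = 0.0329). The summed RNA of BM against M livers at day 10 did not pass (0.77, edgeR adjusted p = 0.12, or 0.96 and 0.0507 with library totals). Summed footprints of BM against WT livers at day 10 did not pass (1.28, edgeR adjusted p = 0.109, or 1.63 and 0.0407 with library totals), and were 1.74 without BM mouse 1. In M livers at day 4 the summed RNA changed by -0.30 on the log2 scale and did not pass (edgeR adjusted p = 0.258). The summed footprints there changed by -0.51 and passed (edgeR adjusted p = 0.0737), but not with library totals (-0.29, edgeR adjusted p = 0.233).

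The exporter fell in B and BM livers at day 10, and in BM livers at day 4 with TMM scaling only. Slc40a1 (chr1:45947211-45965683, minus strand) had 114, 122 and 112 RNA CPM in WT and 67.0, 81.5 and 96.9 in BM livers at day 4, and 171, 175 and 154 in WT, 97.6, 90.6 and 98.1 in B, 112, 114 and 174 in M and 96.8, 93.8 and 90.6 in BM livers at day 10. In CPM the BM livers lay below every WT liver at both days, and the B livers at day 10. The BM changes were -0.50 ± 0.12 (edgeR adjusted p = 0.00609) and -0.84 ± 0.12 (edgeR adjusted p = 0.00104), and the B change at day 10 was -0.80 ± 0.13 (edgeR adjusted p = 0.00218). The day 10 BM change was -0.87 ± 0.12 without mouse 1. With library totals the day 4 BM direction turned, to 0.05 ± 0.12 in RNA (edgeR adjusted p = 0.753), and footprints changed by -0.30 (edgeR adjusted p = 0.146). In TPM the BM livers had 40.1 to 58.8 at day 4 and the WT livers 36.8 to 40.7.

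Footprints on Slc40a1 in B livers at day 10, 55.3, 42.0 and 96.2 RPF CPM against 182, 148 and 152 in WT, fell by 1.33 ± 0.27 on the log2 scale (edgeR adjusted p = 0.0107). In M livers at day 4, RNA rose instead, to 142, 162 and 131 CPM, by 0.33 ± 0.10 (edgeR adjusted p = 0.0358, lost without WT mouse 3 or M mouse 2, adjusted p up to 0.133), and footprints rose by 0.47 ± 0.12 (edgeR adjusted p = 0.0153). At day 10 the M livers differed among themselves, and without M mouse 3 both measures fell (RNA -0.56, edgeR adjusted p = 0.00896; RPFs -0.53, edgeR adjusted p = 0.0314). WT livers themselves had more Slc40a1 RNA at day 10 than at day 4, by 0.53 ± 0.10 (edgeR adjusted p = 0.0239), lost without day 4 WT mouse 1 or 3 (adjusted p up to 0.135).

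Ferroportin is also made by Kupffer cells, the macrophages of the liver. Of 11 macrophage markers, 10 fell in BM livers at day 4 (8 with library totals), where 20.6% of all genes did (5.48% with library totals). The summed RNA of the markers was 347 to 413 CPM in WT and 147 to 175 CPM in BM livers. At day 10, 4 rose and 1 fell, near the shares of all genes (22.9% and 22.8%), and 6 rose and 0 fell with library totals (47.6% and 11.4% of all genes). The sums were then 330 to 398 CPM in WT and 407 to 465 CPM in BM livers. In CPM, Slc40a1 and the marker sum were thus both lower in BM livers at day 4, and at day 10 Slc40a1 was lower and the sum higher. The part of macrophages in the Slc40a1 result was not tested.

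The iron sensors spanned the smallest ranges of TMM-scaled CPM. Aco1 (chr4:40142998-40199010, plus strand), which as IRP1 is an aconitase when it holds an iron-sulphur cluster and binds IREs when it does not, spanned 1.45-fold in RNA and 1.41-fold in footprints over the 24 livers. Ireb2 (chr9:54770970-54820011, plus strand), which as IRP2 is degraded when iron is plentiful, spanned 1.59-fold and 1.96-fold. Aco1 rose in M livers at day 4, from 263, 247 and 253 RNA CPM in WT to 315, 310.4 and 326, by 0.32 ± 0.09 (edgeR adjusted p = 0.0199), with 0.27 ± 0.08 in footprints (edgeR adjusted p = 0.0243, or 0.125 without M mouse 3). With library totals Aco1 also rose in BM livers at day 4, by 0.58 in RNA and 0.48 in footprints (edgeR adjusted p = 6.83e-05 and 0.000203), where TMM gave 0.03 ± 0.09 and 0.05 ± 0.08, and in B livers at day 4, by 0.37 and 0.32 (edgeR adjusted p = 0.0352 and 0.0325). That scaling called Aco1 higher as well in footprints of M livers at day 10 and in RNA of WT livers at day 10 against day 4.

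Ireb2 had 235, 199 and 234 RNA CPM in WT livers at day 4 and 266, 266 and 261 in BM livers, all above WT. The change was 0.25 ± 0.10 (edgeR adjusted p = 0.0592, lost when WT mouse 2 or either BM mouse 1 or 3 was left out, adjusted p up to 0.19), with 0.26 ± 0.08 in footprints (edgeR adjusted p = 0.0223). At day 10 Ireb2 footprints in BM livers, 78.6, 65.0 and 76.2 RPF CPM, lay below 80.7, 102 and 109 in WT, by 0.42 ± 0.16 (edgeR adjusted p = 0.0804; -0.47 ± 0.15 without BM mouse 1). Without WT mouse 2, WT mouse 3, BM mouse 2 or BM mouse 3 this did not pass (adjusted p up to 0.25), nor with library totals (-0.04, edgeR adjusted p = 0.873). M livers at day 4 gained 0.32 ± 0.10 in Ireb2 footprints (edgeR adjusted p = 0.0465, lost without WT mouse 1, WT mouse 3 or M mouse 3, adjusted p up to 0.228). The BM effect differed between days, by -0.53 ± 0.16 in RNA (edgeR adjusted p = 0.0307) and -0.66 ± 0.18 in footprints (edgeR adjusted p = 0.0175). The amount of IRP protein, its iron content and its binding were not measured.

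**Figure D2:**
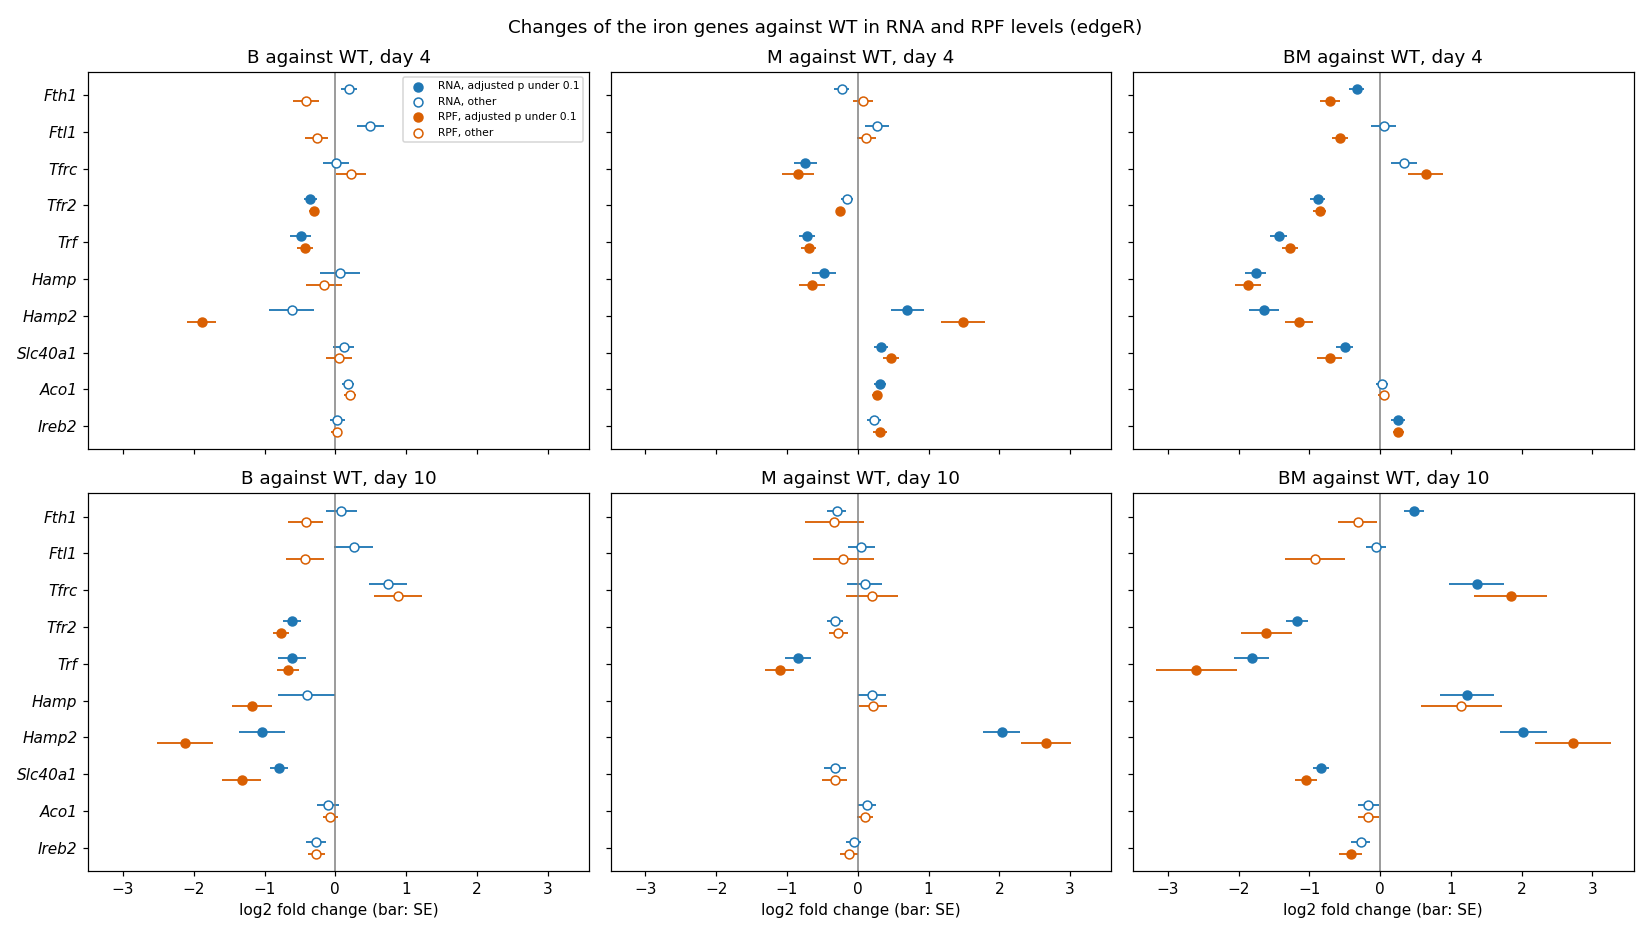
Log2 change against WT of the same day for the 10 iron genes, RNA and RPFs, with bars of 1 standard error (edgeR, 3 mice per group) and filled symbols where the adjusted p was under 0.1. Changes are relative to most genes (TMM scaling). Trf was called lower in all 6 comparisons in both measures (in 4 of 6 in RNA with library totals), and Hamp2 lay low in BM livers at day 4 and high in M and BM livers at day 10.

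Counted over the 10 genes, BM livers had the most calls at an adjusted p under 0.1 with TMM scaling. At day 4 the RNA of 0 rose and 2 fell in B livers, where 4.41% of all genes tested were called higher and 3.73% lower. In M livers 3 rose and 3 fell (13.5% and 10.3% of all genes), and in BM livers 1 rose and 6 fell (21.3% and 20.6%). At day 10, 0 rose and 4 fell in B livers (8.14% and 7.48% of all genes), 1 rose and 1 fell in M livers (8.53% and 7.12%), and 4 rose and 3 fell in BM livers (22.9% and 22.8%). The share of the 10 genes that fell was above that of all genes in B livers at both days and in M and BM livers at day 4, and near it in M and BM livers at day 10. The median log2 change of the 10 genes in BM livers at day 4 was -0.42, where that of all genes was -0.01.

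With library totals both the 10 genes and all genes shifted towards higher. In footprint calls, BM livers then tied with M livers at day 4 and with B livers at day 10. In RNA at day 4, 3 rose and 0 fell in B livers (14.4% and 2.07% of all genes), 6 rose and 2 fell in M livers (50.7% and 2.6%), and 5 rose and 4 fell in BM livers (67.2% and 5.48%). At day 10 the counts were 1 and 3 in B livers (19.6% and 3.77%), 1 and 1 in M livers (16.9% and 2.84%), and 5 and 3 in BM livers (47.6% and 11.4%). In footprints at day 4 they were 1 and 2 in B livers (11.4% and 3.8%), 5 and 3 in M livers (38.2% and 6.13%), and 3 and 5 in BM livers (59.5% and 8.7%), and at day 10 they were 1 and 5 (33.9% and 5.12%), 2 and 1 (30.5% and 3.35%), and 3 and 3 (43.3% and 10.9%). The share of the 10 genes that fell was above that of all genes in each of these groups except RNA of B livers at day 4. In M livers at day 10 only 1 gene fell in each measure, too few to set against those shares. The 10 genes were chosen with earlier results of these data known, so under either scaling a larger share is no independent support.

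With TMM scaling in footprints at day 4, 0 rose and 3 fell in B livers, where 6.21% of all genes were called higher and 6.26% lower. In M livers 4 rose and 4 fell (18.5% and 14.7% of all genes), and in BM livers 2 rose and 7 fell (26.2% and 24.7%). At day 10, 0 rose and 5 fell in B livers (13.1% and 12.1% of all genes), 1 rose and 1 fell in M livers (10.6% and 8.8%), and 2 rose and 4 fell in BM livers (24.5% and 22.3%). Without BM mouse 1, 2 or 3 at day 10, 7, 6 and 7 of the 10 genes were called in RNA (57.1%, 34.3% and 35.9% of all genes) and 8, 5 and 5 in footprints (66.3%, 33.3% and 36%). The BM effect differed between the days for 4 genes in RNA, 3 up and 1 down (13.4% and 16.6% of all genes), and for 3 in footprints, 2 up and 1 down (17.2% and 18.6%). With library totals the RNA split was 3 up and 2 down (8.66% and 21.2% of all genes), and the footprint split was 2 up and 1 down (14.4% and 18.6%). Between days, 1 of the 10 genes was called in WT RNA (Slc40a1, with 2.32% of all genes called) and 0 in WT footprints by edgeR (4.44%).

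BM livers also differed from livers with 1 mutation. Against B livers at day 4, 8 of the 10 genes were called in RNA, with Ireb2 up and 7 down (18.1% and 16.7% of all genes), and against M livers 7, with Tfrc up and 6 down (14.6% and 15.9%). In footprints 2 were higher and 4 lower against B (23.2% and 21.5% of all genes), and 1 was higher and 8 lower against M (18.8% and 19.3%). With library totals 2 were higher and 3 lower in RNA against B (49.6% and 5.31% of all genes) and 2 and 5 against M (33.6% and 9.27%), and in footprints 3 and 4 (49.5% and 7.14%) and 1 and 7 (39% and 9.33%). The Hamp2 RNA change between BM and M livers was -2.34 ± 0.25 at day 4 (edgeR adjusted p = 1.71e-05) and 0.01 ± 0.34 at day 10 (edgeR adjusted p = 0.986). Of the calls against B at day 4, that of Ireb2 was lost in 5 of 6 fits without 1 mouse (all but B mouse 3, adjusted p up to 0.252), that of Ftl1 in 4 (without B mouse 1 or 2 or BM mouse 1 or 3, adjusted p up to 0.238) and that of Hamp2 in 2 (without B mouse 1 or BM mouse 1, adjusted p up to 0.248). At day 10, 4 genes were called in RNA against B (31.8%) and 6 against M (32.9%), and in footprints 3 (36.5%) and 4 (32.7%). Among the RNA calls was Hamp, higher by 1.66 ± 0.50 against B (edgeR adjusted p = 0.0416) and by 1.05 ± 0.33 against M (edgeR adjusted p = 0.0477). The Hamp calls were lost in 3 of 6 and 5 of 6 fits without 1 mouse (adjusted p up to 0.126 and 0.153), among them the fits without BM mouse 2 or BM mouse 3. Without BM mouse 1 the Hamp changes were 2.01 ± 0.41 and 1.40 ± 0.10, and that of Tfr2 footprints against B, which did not pass with all mice, was -1.39 ± 0.13.

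Translation efficiency was tested as the change of RPFs beyond that of RNA. None of the 10 genes passed in any of the 12 comparisons when libraries were treated as separate samples by edgeR. The shares of all genes that passed were low as well, so 0 of 10 does not set these genes apart. Against WT these shares were 0.0488% in B, 0.971% in M and 2.23% in BM livers at day 4, and 0.0564%, 0% and 0.259% at day 10. For BM they were 1.12% against B and 0.0943% against M at day 4, and 0.169% and 0.132% at day 10, and they were 0.501% between WT days and 0.31% for the difference of the BM effect between days. At an unadjusted p under 0.05 there were 3 genes in B livers at day 4 (Fth1, Ftl1 and Hamp2), 1 in BM livers at day 4 (Ftl1), 1 in BM livers at day 10 (Fth1), 1 for BM against B at day 4 (Hamp2) and 2 for BM against M at day 4 (Fth1 and Ftl1). DESeq2 called Hamp2 for BM against B at day 4 (log2 change 1.75, DESeq2 adjusted p = 0.0182; 1.46% of all genes called) and Fth1 for BM against M at day 4 (-0.69, DESeq2 adjusted p = 0.000879; 0.245%), and none of the 10 elsewhere. With library totals edgeR called Fth1 for BM against M at day 4 (-0.66, edgeR adjusted p = 0.0591) and none of the 10 in the other comparisons.

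The RNA and RPF libraries of 1 mouse came from the same lysate, and with the mouse as a block 14 gene results passed. With library totals all of these but Slc40a1 in B livers at day 10 passed as well (edgeR adjusted p = 0.193 there), and so did Tfr2 between WT days (-0.36, edgeR adjusted p = 0.0489). In that fit the TE of Fth1 fell in B livers at day 4, by 0.63 ± 0.13 (edgeR adjusted p = 0.0494; 0.274% of all genes called), and in BM livers at day 4, by 0.38 ± 0.10 (edgeR adjusted p = 0.021; 6.17%). Against M livers at day 4, the BM livers were lower in Fth1 TE by 0.69 ± 0.09 (edgeR adjusted p = 5.38e-06; 2.12%). Per mouse, the log2 ratio of Fth1 RPF CPM to RNA CPM at day 4 was -1.02, -0.69 and -0.75 in WT, -1.22, -1.86 and -1.24 in B, -0.40, -0.78 and -0.45 in M and -1.28, -1.07 and -1.29 in BM livers. Every B and BM liver lay below every WT and M liver.

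The light chains also fell in TE in that fit. The summed Ftl1 and Ftl1-ps1 TE fell with the mouse as a block by 0.80 ± 0.17 in B livers at day 4 (edgeR adjusted p = 0.0498), by 0.52 ± 0.11 in BM livers at day 4 (edgeR adjusted p = 0.0043) and by 1.00 ± 0.26 in BM livers at day 10 (edgeR adjusted p = 0.0805). Without the block none of these 3 passed (edgeR adjusted p = 1, 0.529 and 0.448). At day 4 the log2 ratios of the sum were -0.63, -0.81 and -0.31 in WT, -1.37, -1.92 and -0.84 in B, -0.50, -0.91 and -0.44 in M and -1.32, -1.15 and -0.91 in BM livers. At day 10 they were -0.68, -1.41 and -0.56 in WT, -2.16, -1.31 and -0.47 in B, -1.84, -1.10 and -0.56 in M and -1.32, -2.10 and -2.16 in BM livers. The groups did not overlap between BM and WT at day 4, and at day 10 BM mouse 1 lay inside the WT range and BM mice 2 and 3 below it. Ftl1 alone was called in the blocked fit in B livers (-0.79, edgeR adjusted p = 0.0657) and BM livers (-0.65, edgeR adjusted p = 0.000368) at day 4, and against M (-0.48, edgeR adjusted p = 0.0147).

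The other calls in the blocked fit were spread over the remaining roles. Hamp2 TE fell in B livers at day 4, by 1.21 ± 0.27 (edgeR adjusted p = 0.0877), rose in M livers at day 4 by 0.77 ± 0.15 (edgeR adjusted p = 0.00275; 2.65% of all genes called) and stood higher in BM than in B livers at day 4, by 1.70 ± 0.28 (edgeR adjusted p = 0.000234; 4.68%). In B livers at day 10, Hamp TE fell by 0.65 ± 0.17 (edgeR adjusted p = 0.042; 2.6%) and Slc40a1 TE by 0.60 ± 0.18 (edgeR adjusted p = 0.0951). BM livers at day 4 had a higher Tfrc TE than M livers (0.38 ± 0.11, edgeR adjusted p = 0.0883) and a lower Slc40a1 TE (-0.39 ± 0.10, edgeR adjusted p = 0.0376). Trf TE fell in BM livers at day 10, by 1.11 ± 0.31 (edgeR adjusted p = 0.0874; 5.21%).

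The day 10 BM livers were split in TE as well. Per mouse, the log2 TE of Trf in BM livers was 0.90, -0.41 and -0.46 where WT livers had 1.00, 1.02 and 1.24, and that of Tfr2 was 1.05, 0.08 and 0.09 against 0.92, 0.93 and 1.04. Without mouse 1, which had been singled out by such values, 5 of the 10 genes were past the threshold without the block, and 21.5% of all genes, with changes of -1.54 ± 0.21 for Trf, -0.90 ± 0.15 for Tfr2, -1.45 ± 0.32 for Ftl1, -0.93 ± 0.32 for Fth1 and 0.81 ± 0.30 for Hamp2. These are descriptions of mice 2 and 3. Without mouse 2 or without mouse 3, where 0.121% of all genes were called in each case, the edgeR adjusted p-values of these 5 genes were at least 0.958. Fth1 TE for BM against M at day 4 passed without the block when BM mouse 2 was left out (edgeR adjusted p = 0.0784).

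**Figure D3:**
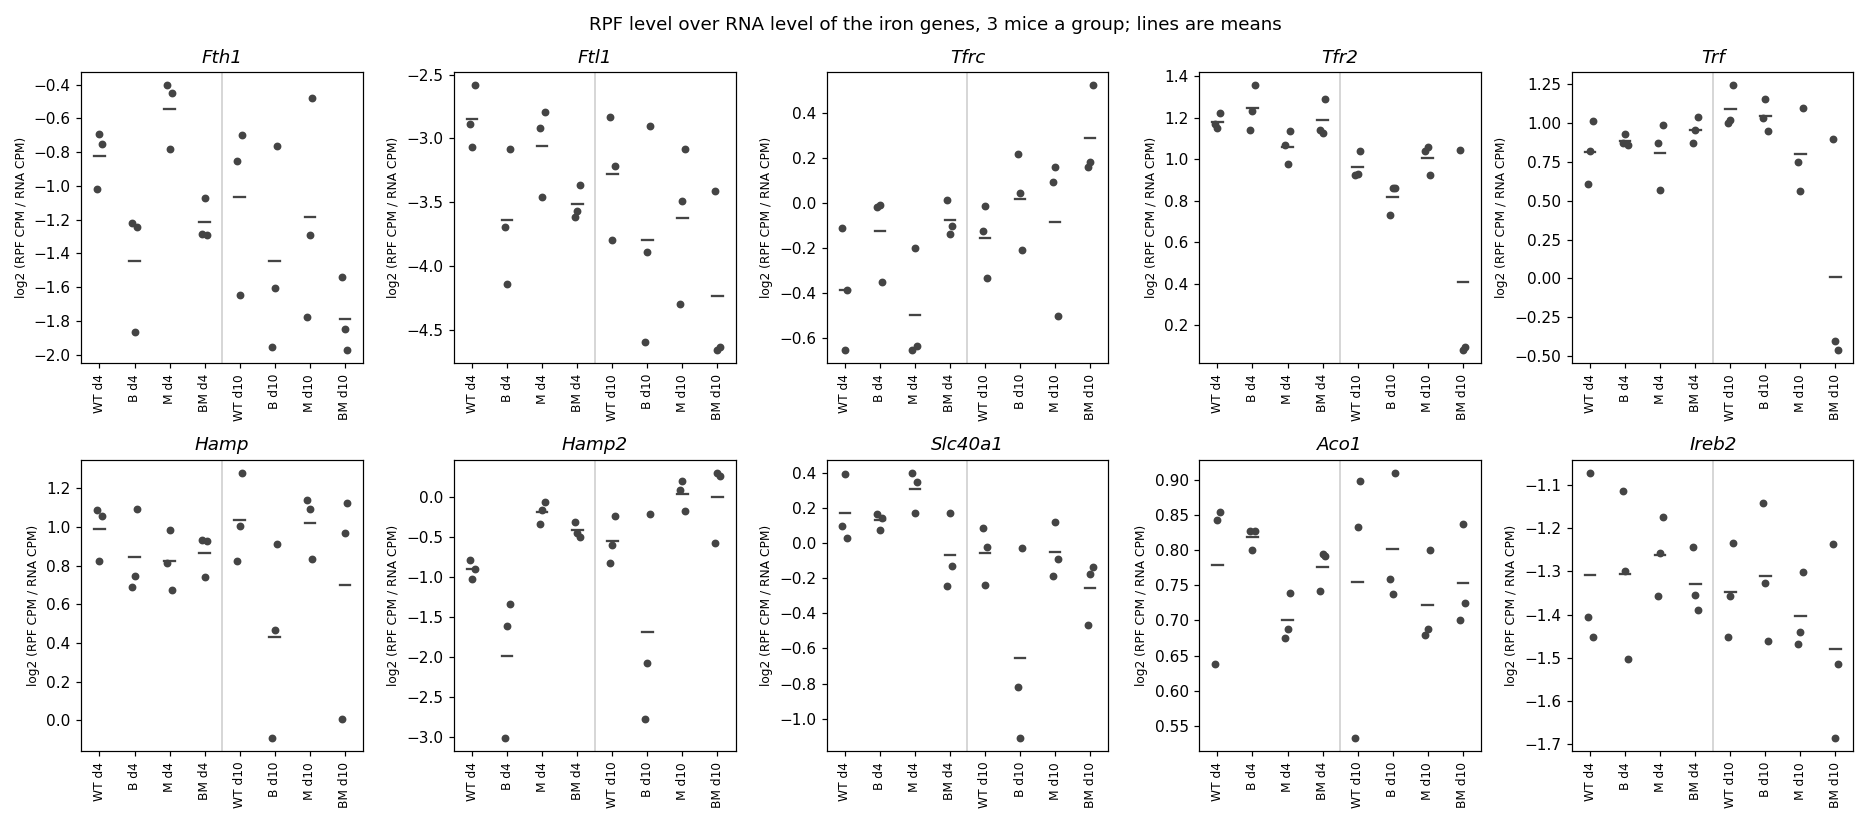
Log2 ratio of RPF CPM to RNA CPM of each iron gene in every mouse, by genotype and day, with lines at group means of 3 mice. Fth1 and Ftl1 spread over mice within groups, Aco1 and Ireb2 lay close together, and 2 of the 3 BM livers at day 10 were low in Trf and Tfr2.

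Ferritin TE also varied from mouse to mouse within groups. The SD of log2 TE within groups was 0.409 for Fth1, larger than in 93.0% of 8731 genes with at least 10 counts in every library, and 0.54 for Ftl1 (percentile 99.0). For Aco1 it was 0.0959, for Ireb2 0.155, for Slc40a1 0.25 and for Tfrc 0.232, where the median over genes was 0.223. At day 10 the log2 TE of Fth1 was -0.85, -1.65 and -0.70 in WT, -1.96, -1.60 and -0.77 in B, -1.78, -1.29 and -0.48 in M and -1.54, -1.84 and -1.97 in BM livers, so that WT mouse 2, B mice 1 and 2 and M mouse 1 lay inside the range of the BM livers.

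Both ferritin chains shared this variation, a relation chosen after the values were seen, as 1 of 6 relations among ferritin TE, Slc40a1 TE and Tfrc RNA over the 24 mice. The p-values of these relations are thus descriptions and no independent support. Permutation over all mice also exchanges mice between groups, so differences between groups alone can make those p-values small. The TE of Fth1 and of Ftl1 summed with Ftl1-ps1 had a Pearson r of 0.927 and a Spearman rho of 0.917 (permutation p = 1e-05 for both, the smallest that the 100000 draws can give, adjusted p = 6e-05 and 3e-05 over the 6 relations), and r = 0.925 without the 2 mice farthest from the median. Within groups, with each mouse taken as its deviation from its group mean, r was 0.892 (permutation p = 0.00025, adjusted p = 0.0015). Fth1 shares no 30-base window with either Ftl1 gene, but both measures come from the same 2 libraries of each mouse. With library totals r was 0.932 over all mice and 0.886 within groups.

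Ferritin TE was low in the livers where Tfrc RNA was high. Over the 24 mice, Fth1 TE and Tfrc log2 RNA CPM had r = -0.742 and rho = -0.709 (permutation p = 3e-05 and 0.00021, adjusted p = 9e-05 and 0.00042), with r = -0.684 without the 2 farthest mice and r = -0.527 within groups (permutation p = 0.0147, adjusted p = 0.0442). With library totals these were -0.753 over all mice and -0.536 within groups. Fth1 and Slc40a1 TE had r = 0.611 and rho = 0.668 (permutation p = 0.00084 and 0.0006, adjusted p = 0.00126 and 0.0009), r = 0.53 without the 2 farthest mice and r = 0.524 within groups, which did not pass (permutation p = 0.0757, adjusted p = 0.151). Neither did the within-group relations of the summed light chain with Slc40a1 TE (r = 0.368, permutation p = 0.389) and Tfrc RNA (r = -0.381, permutation p = 0.12), nor that of Slc40a1 TE with Tfrc RNA (r = -0.303, permutation p = 0.212). Over all mice those 3 relations had r = 0.49, -0.638 and -0.59.

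**Figure D4:**
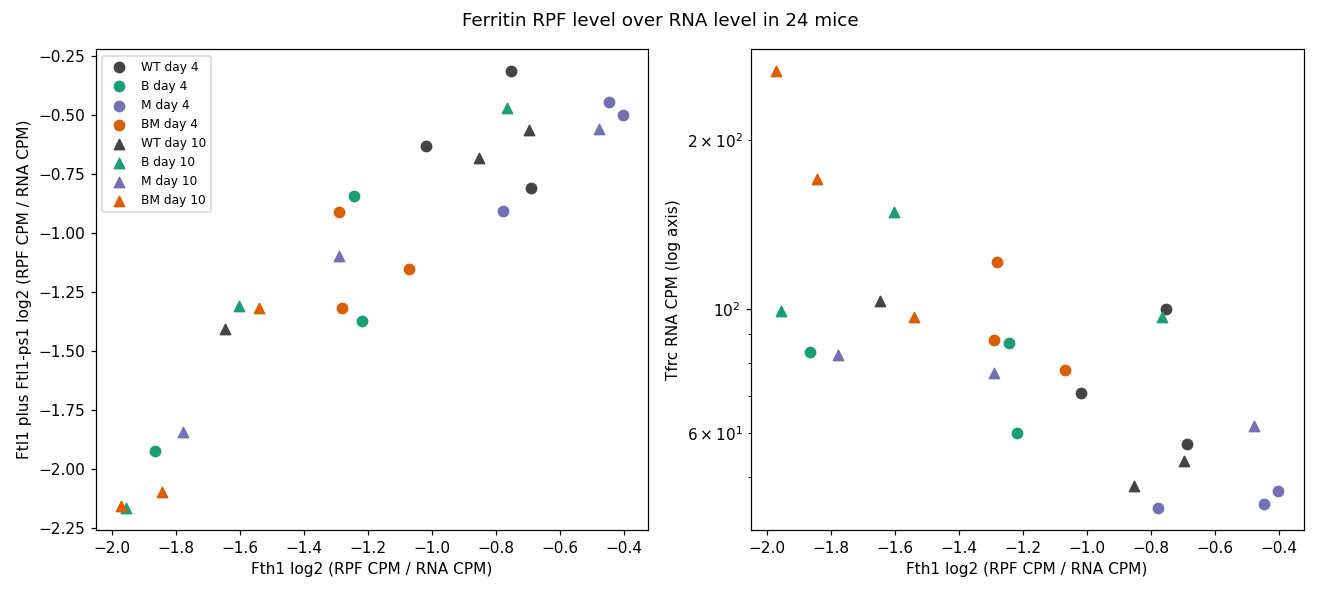
Log2 TE of Fth1 in each of the 24 mice against log2 TE of Ftl1 summed with Ftl1-ps1 (left) and against Tfrc RNA in CPM on a log axis (right), coloured by genotype, with circles for day 4 and triangles for day 10. Ferritin chains rose and fell together (r = 0.927), and Fth1 TE was lower where Tfrc RNA was higher (r = -0.742).

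Among 8730 genes, those whose TE was most like that of Fth1 over the 24 mice are given as a description. They were Ftl1-ps1 (r = 0.93), Ftl1 (0.881), Alas2 (0.739), Gemin2 (0.71) and Glul (0.699). Alas2, the erythroid enzyme that starts haem synthesis, also holds the IRE motif in its 5′ UTR. Gemin2 and Glul were not among the genes with that motif. Slc40a1 was ranked 21st (0.611), where the median gene had r = -0.0505. Of the 17 genes with the 5′ UTR motif that could be compared, 12 lay between r = 0.353 (Vti1b) and -0.413 (Zfp24). With group means removed, Ftl1-ps1 and Ftl1 kept the first ranks (0.895 and 0.837). The next were Nid2 (0.752), Gemin2 (0.716) and Pyroxd2 (0.666), which were not among the genes with the motif. Alas2 was 18th (0.606) and Slc40a1 64th (0.524). Nasp, which also holds the motif, was 24th by that measure (0.592). Alas2 RNA can come from immature red cells: erythroid markers summed to 536 to 578 CPM in WT and 215 to 306 CPM in BM livers at day 4, and 536 to 849.5 CPM and 218 to 875 CPM at day 10. Of these 9 markers, Epb42 was at 0 in 8 of the 24 RNA libraries. Their part in these relations was not tested.

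Other iron genes changed in both directions. The list of 76 further genes held those of iron uptake, storage, hepcidin signalling, haem and iron-sulphur clusters, and also Epas1, Cdc14a and Cdc42bpa, whose mRNAs are known for an IRE. Of these, 6 rose and 5 fell in RNA in B livers at day 4, 8 and 12 in M livers, and 15 and 17 in BM livers, of 72 tested. At day 10, 5 rose and 8 fell in B livers, 6 and 8 in M livers (of 72), and 15 and 18 in BM livers (of 70). In footprints the counts were 7 and 8 in B, 11 and 13 in M (of 71) and 22 and 18 in BM livers (of 73) at day 4, and 6 and 8 in B, 6 and 9 in M and 17 and 15 in BM livers (of 71) at day 10. The median log2 change of these genes lay between -0.14 and 0.05 in the 12 sets, and the shares of all genes called are those given above. With library totals most calls were higher: in RNA 21 rose and 5 fell in B, 38 and 5 in M and 51 and 7 in BM livers at day 4, and 16 and 4, 12 and 1 and 31 and 9 at day 10. In footprints the splits were 14 and 8, 27 and 9 and 48 and 11 at day 4, and 18 and 5, 22 and 2 and 26 and 8 at day 10. The shares of all genes with library totals, also mostly higher, are given above as well.

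Relative to most genes, those of uptake fell more often than they rose at day 4. Of 14 genes tested for uptake, reduction and transport, 5 fell and 1 rose in B livers, 6 fell and 2 rose in M livers and 6 fell and 3 rose in BM livers, where 3.73%, 10.3% and 20.6% of all genes fell. With library totals 5 fell and 3 rose in B (2.07% and 14.4% of all genes), 4 fell and 4 rose in M (2.6% and 50.7%) and 5 fell and 7 rose in BM livers (5.48% and 67.2%). Steap4, a metal reductase, changed by -2.35, -2.56 and -2.94 on the log2 scale in B, M and BM livers (edgeR adjusted p = 0.00252, 0.000257 and 3.59e-05). Haptoglobin, Hp, which binds free haemoglobin, changed by -2.34, -1.41 and -2.21, and haemopexin, Hpx, which binds free haem, by -1.61, -1.47 and -2.31. Hp and Hpx are also acute-phase proteins. All 3 comparisons use the WT livers of day 4, and these genes were also lower in WT livers at day 10 than at day 4, with log2 changes of -1.76 for Steap4, -1.38 for Hp and -0.85 for Hpx (edgeR adjusted p = 0.0335, 0.00476 and 0.0893).

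Of the genes that steer hepcidin, 4 rose and 5 fell in BM livers at day 4, of 19 tested, near the shares of all genes (21.3% and 20.6%). With library totals 11 rose and 0 fell (67.2% and 5.48% of all genes). Bmp6, a ligand that induces hepcidin, rose by 0.83 ± 0.26 (edgeR adjusted p = 0.0238), in the livers where Hamp fell. At day 10, 3 rose and 3 fell, of 18 tested, below the shares of all genes (22.9% and 22.8%). With library totals 9 rose and 1 fell there (47.6% and 11.4% of all genes). Atoh8, a transcription factor linked to hepcidin, rose by 1.23 ± 0.42 (edgeR adjusted p = 0.0453), and its BM effect differed between the days by 2.27 ± 0.53 (edgeR adjusted p = 0.00761). Tmprss6, a protease that restrains hepcidin, fell there by 1.79 ± 0.18 in RNA (edgeR adjusted p = 0.000164) and by 2.26 ± 0.58 in footprints (edgeR adjusted p = 0.0195) in BM livers, where Hamp RNA rose. Tmprss6 also fell in B livers at day 10, by 0.78 ± 0.14 (edgeR adjusted p = 0.00492), where Hamp RNA did not pass the test.

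Of 9 haem synthesis genes, 3 rose and 1 fell in BM livers at day 4, and 0 rose and 4 fell at day 10, where 21.3% and 20.6% of all genes rose and fell at day 4 and 22.9% and 22.8% at day 10. With library totals 7 rose and 1 fell at day 4 (67.2% and 5.48% of all genes), and 0 rose and 2 fell at day 10 (47.6% and 11.4%). Cpox, a late enzyme of the pathway, rose by 1.04 ± 0.12 at day 4 (edgeR adjusted p = 1.57e-05), and at day 10 Ppox, the enzyme after it, fell by 2.15 ± 0.29 (edgeR adjusted p = 0.000836) and Alas2 by 3.02 ± 0.34 (edgeR adjusted p = 0.000312). Alas2 footprints fell by 4.19 ± 0.25 there (edgeR adjusted p = 0.000102). Without BM mouse 1 the RNA changes at day 10 were -1.95 for Tmprss6, -2.37 for Ppox and -2.68 for Alas2, and the footprint changes -3.42 for Tmprss6 and -4.23 for Alas2. Of 15 genes of iron-sulphur clusters and mitochondrial iron, 6 rose and 1 fell in BM livers at day 10 (22.9% and 22.8% of all genes). With library totals 10 rose and 0 fell (47.6% and 11.4% of all genes). Ciapin1, a cluster assembly factor, rose by 1.35 ± 0.30 with TMM (edgeR adjusted p = 0.00796; 1.61 without BM mouse 1). Among all 76 genes, TE was called by edgeR in M and BM livers at day 4 for Lrp1, a haemopexin receptor (-0.62 and -0.85, edgeR adjusted p = 0.0502 and 0.0567).

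The genes whose RNA was most like each member over the 24 mice, among 12039 genes, are given as a description of patterns that the 8 groups share. Tfr2 was closest to F2 (r = 0.975), Serpinf2 and Serpina1b, and Trf to C8a (0.971), Vtn and Cfb, all secreted proteins made by hepatocytes. Fth1 was closest to Atox1 (0.861), Tfrc to Ptpn2 (0.898), Hamp to Ginm1 (0.845) and Hamp2 to Slc37a4 (0.899). Slc40a1 was closest to Tagln (0.867), Aco1 to Aldh7a1 (0.901), Ireb2 to Gm4631 (0.849) and Ftl1 to Ftl1-ps1 (0.968), with which it shares reads.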

How the data were processed

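Footprint files held counts, which per the file headers and the study's methods the authors made by trimming with cutadapt 1.18, removing rRNA and tRNA reads, aligning to 1 protein-coding transcript per gene, its most abundant (filtered GENCODE vM27), collapsing by molecular identifier and summing reads in the coding sequence, the first 20 and last 10 codons left out. RNA files held expected counts per isoform, which the authors made with Bowtie2 2.3.5.1 and RSEM 1.3.3 after trimming with no maximum read length and removal of duplicates, together with TPM, FPKM and the percent of each isoform. The deposited FPKM and percent values were not used. TPM served for levels between genes, for TE per codon and, for some genes, for levels of mice and groups beside CPM. SAMtools 1.9, R 4.3.1 and DESeq2 are also named in the submitters' processing notes.

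Expected counts were summed per gene and rounded; at least 99.92% were whole already. Library totals were 9742197 to 14380713 RPF counts (median 12503695) and 3254141 to 6540116 RNA counts (median 5077216). Fits used R 4.3.3 with edgeR 4.0.16 and limma 3.58.1: filterByExpr (minimum count 10, minimum total 15), TMM scaling and the quasi-likelihood test, per comparison on the mice compared, with 3 mice per group, each an individual animal. TE was the interaction of library type and group. P-values were adjusted by Benjamini and Hochberg's method over the genes tested, and a gene was called at an adjusted p under 0.1. The SE was the log2 change divided by the square root of F. The scripts were tested on simulated data. CPM used TMM-scaled totals. TMM takes most genes as unchanged, so library totals without TMM factors were added as an alternative after seeing the data. Levels are relative to the total of each library type, so absolute amounts were not measured. TE per codon was ranked among genes with at least 10 counts.

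RNA and RPF libraries of the same mouse were paired, since both came from 1 lysate: deviations from group means correlated at 0.156 to 0.605, and 24 of 24 libraries correlated best with their own partner. A fit with the mouse as a block is therefore given beside TE results that it changes. Replicate numbers did not pair mice of different groups.

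The 10 genes and all lists were chosen with earlier results of these data known. Named genes were the 10 members in every comparison, the 3 called genes with the largest change in each direction among the other iron lists, the 3 genes closest in RNA pattern to each member, and the genotype check genes. Alternatives were DESeq2 1.42.0, its size factors in edgeR, no filter, RNA of the counted transcript only, replicate blocks and leaving out each mouse. The deletion of Ctnnb1 exon 3 was not checked with these gene counts. Protein sequences were not used here. Values of some single genes in these lists are not reported here.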

Additional observations from a re-analysis of the deposited data

Results flagged for a closer look

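The effect of the double mutation against WT differed between day 10 and day 4 for 4 of the 10 genes in RNA, by the test of that difference itself (edgeR's quasi-likelihood test of the interaction, 3 mice per group, Benjamini-Hochberg adjustment over all genes). The difference, day 10 minus day 4 on the log2 scale, was 0.81 for Fth1 (adjusted p = 0.00484), 2.99 for Hamp (adjusted p = 0.000396), 3.66 for Hamp2 (adjusted p = 7.39e-05) and -0.53 for Ireb2 (adjusted p = 0.0307). In footprints the difference was 3.02 for Hamp (edgeR adjusted p = 0.00707), 3.88 for Hamp2 (edgeR adjusted p = 0.00121) and -0.66 for Ireb2 (edgeR adjusted p = 0.0175). Fth1 footprints did not pass (0.40, edgeR adjusted p = 0.385). These 7 calls held in all 12 fits that left out 1 mouse each, and with library totals in place of TMM scaling, an alternative added after seeing the data.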

How the results depend on the processing

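Among all alternatives run, library totals in place of TMM were the only one to turn the direction of a called value. Of 360 gene results, 346 kept their side of the threshold with DESeq2 (5 lost, 9 gained), 360 with DESeq2 size factors in edgeR and 348 without the filter (1 lost, 11 gained). Of 240 RNA and TE results, 237 kept theirs with RNA of the counted transcript only. Counts of the 10 genes called that moved by over 1.5 times were: without the filter, RNA of B against WT at day 4 (4 for 2), RNA of WT between days (2 for 1) and TE of BM against B at day 4 (1 for 0); with DESeq2, RPF of BM against B at day 10 (5 for 3) and TE of BM against B and against M at day 4 (1 for 0 in each); and with the counted transcript, TE of BM against M at day 4 (1 for 0). The causes of these moves were not tested.

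With the mouse as a replicate block, the TE counts rose from 0 to 3 (B against WT, day 4), 1 (M, day 4), 2 (BM, day 4), 2 (B, day 10), 1 (BM, day 10), 1 (BM against B, day 4) and 4 (BM against M, day 4). The block changed no other call. Replicate numbers as a block, which the labels do not tie to a shared litter or day and whose pairs correlated at -0.177 to 0.202, changed the RNA count of M against WT at day 10 (1 for 2) by over 1.5 times, and 225 of 240 gene results kept their side of the threshold (6 lost, 9 gained).

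With 1 mouse left out, the counts in RNA ranged from 0 to 3 (B, day 4), 4 to 6 (M, day 4), 5 to 8 (BM, day 4), 2 to 4 (B, day 10), 1 to 4 (M, day 10), 5 to 7 (BM, day 10), 5 to 8 (BM against B, day 4), 7 to 8 (BM against M, day 4), 2 to 5 and 3 to 7 (the same at day 10), 0 to 2 (WT between days) and 4 to 7 (difference of the BM effect). In RPFs they ranged from 1 to 4, 6 to 8 and 8 to 9 (B, M and BM, day 4), 5 to 7, 2 to 5 and 5 to 8 (day 10), 6 to 9 and 8 to 9 (BM against B and M, day 4), 1 to 6 and 0 to 7 (day 10), 0 to 1 (WT between days) and 3 to 7 (difference). In TE they ranged from 0 to 5 (BM, day 10), 0 to 1 (BM against M, day 4), 0 to 3 and 0 to 2 (BM against B and M, day 10) and 0 to 2 (difference), and were 0 in every fit of the other 7 comparisons. The highest day 10 BM counts in TE came without BM mouse 1, which had been singled out by its values.

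Among alternatives added after seeing the data, library totals without TMM kept 314 of 360 gene results on their side of the threshold (18 lost, 24 gained) and turned 4 RNA results against WT: Fth1 (0.22 for -0.33) and Slc40a1 (0.046 for -0.50) in BM and Tfr2 (0.20 for -0.15) in M livers at day 4, and Ftl1 (0.35 for -0.05) in BM livers at day 10. The counts that moved by over 1.5 times were RNA of BM against B at day 4 (5 for 8), RNA of WT between days (2 for 1) and TE of BM against M at day 4 (1 for 0). The other added alternatives summed Ftl1 with Ftl1-ps1 (35 of 36 results kept their side) and Hamp with Hamp2 (33 of 36). Hamp2 had the lowest counts of the 10 genes, down to 29 RPF and 43 RNA counts in a library.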

Other observations

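Alas2, which is no member but holds the IRE motif in its 5′ UTR, had log2 TE of 0.44, -0.79 and -1.27 in BM mice 1, 2 and 3 at day 10, where the other 21 livers had 0.16 to 1.24. BM mice 2 and 3 were thus the lowest of all 24 livers. These values were singled out after they were seen, and no test was run on them.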
